A study of Mus musculus with 9 samples.

Results

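The lipogenic genes of the liver, 10 genes that encode the enzymes and regulators of de novo fatty acid synthesis, were examined in mouse liver after oral doxycycline (Dox) or tetracycline (Tc). The set was fixed by gene name: Srebf1, Thrsp, Acly, Me1, Acaca, Acacb, Fasn, Elovl6, Scd1 and Pnpla3. All 10 were among the 32285 gene identifiers measured, and 9 of them reached the mean of 10 normalized counts needed for testing, as did 12100 genes in all. Pnpla3 did not. The 9 libraries fell into 3 groups of 3: Control mice, Dox mice and Tc mice, with 7426136 to 12183041 reads on genes per library. By the series' design these were Tet-OFF mice, which in the study's methods carry a piggyBac (PB) CAG-CreERT2 transgene together with LSL-tTA and tetO-Venus-ires-mCherry, the latter pair placed at Rosa26. The mice of every group were treated with tamoxifen, which removes the stop cassette before tTA, and tTA then drives Venus and mCherry unless Dox or Tc is given. Control mice thus differed from the drug groups both in the drug and in transgene expression, and these cannot be told apart. Dox hyclate or Tc hydrochloride was given at 2 mg/mL in sweetened drinking water for 7 days from 4 weeks of age, and the labels do not say what the Control mice drank. The study describes the mice treated for these liver profiles as male. The CAG promoter acts in nearly all cell types, so the model is not restricted to hepatocytes.

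De novo lipogenesis turns carbohydrate into fatty acids. Citrate leaves the mitochondria and is split into acetyl-CoA, acetyl-CoA is carboxylated to malonyl-CoA, a single large enzyme joins these units into palmitate with NADPH as the reductant, and elongases and desaturases then finish the chain. In the fed liver insulin raises this programme through SREBP-1c and glucose raises it through ChREBP, and in fasting it is low.

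Promoter sequence was available for 9 of the 10 genes, in 12 windows that reach from 250 bases before to 50 bases after a RefSeq start (GRCm38.p6). The promoters shown are those of the 4 genes with the largest absolute limma log2 fold change in Dox against Control among those with sequence. Each run is the 250 bases before the start, 5′ to 3′ on the gene's strand, with CCAAT boxes (CCAAT or ATTGG) and GC boxes (GGGCGG or CCGCCC) in capitals. They lie at chr7:97417551-97417800 on the minus strand for Thrsp, chr3:129532136-129532385 on the plus strand for Elovl6, chr11:60222582-60222831 on the minus strand for Srebf1 (the most upstream of 3 starts) and chr9:86695915-86696164 on the minus strand for Me1 (the more upstream of 2).
Thrsp: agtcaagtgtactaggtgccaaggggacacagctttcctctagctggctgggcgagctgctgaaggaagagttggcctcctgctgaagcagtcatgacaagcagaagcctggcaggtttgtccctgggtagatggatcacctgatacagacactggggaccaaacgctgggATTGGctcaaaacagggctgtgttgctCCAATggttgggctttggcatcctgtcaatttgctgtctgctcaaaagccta
Elovl6: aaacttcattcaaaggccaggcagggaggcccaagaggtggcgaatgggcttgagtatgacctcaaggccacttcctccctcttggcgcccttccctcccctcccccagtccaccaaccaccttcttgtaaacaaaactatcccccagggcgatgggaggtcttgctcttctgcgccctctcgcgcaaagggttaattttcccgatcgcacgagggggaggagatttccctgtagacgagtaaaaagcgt
Srebf1: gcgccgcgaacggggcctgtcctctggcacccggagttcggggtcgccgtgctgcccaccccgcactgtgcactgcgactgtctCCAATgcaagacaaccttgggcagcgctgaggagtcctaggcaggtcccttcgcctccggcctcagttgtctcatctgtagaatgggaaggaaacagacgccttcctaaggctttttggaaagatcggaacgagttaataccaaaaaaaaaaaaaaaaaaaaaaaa
Me1: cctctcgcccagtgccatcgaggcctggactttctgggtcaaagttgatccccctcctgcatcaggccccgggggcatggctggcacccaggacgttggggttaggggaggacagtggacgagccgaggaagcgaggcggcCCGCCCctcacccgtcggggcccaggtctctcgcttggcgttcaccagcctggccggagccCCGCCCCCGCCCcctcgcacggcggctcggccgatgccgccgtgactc
The CCAAT box, the site read by NF-Y, was found in 8 of the 12 lipogenic windows, against 37.4% of all 32851 windows. In Thrsp it begins at positions -79 and -52 from the start, on opposite strands. GC boxes were found in 5 of the 12 windows, against 35.7% of all windows, and in Me1 those at -48 and -42 adjoin each other. The E-box CACGTG occurred in 0 of the 12 windows, against 7.15% of all windows, and the sterol element core TCACNCCAC in 0, against 1.24%. All motifs were searched on both strands, and 2 CCAAT boxes of Fasn, at -62 and -59, overlap. These are matches of letters and say nothing of binding.

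Before any value is read, 1 property of the libraries has to be given. In every group, library 3 nearly equalled libraries 1 and 2 added together with fixed weights. Fitted over all tested genes other than the lipogenic ones, the weights of libraries 1 and 2 were 58.5% and 41.6% in Control, 61.3% and 34.5% in Dox and 61.3% and 36.8% in Tc. For the 9 tested lipogenic genes, library 3 differed from that sum by -4.09% to 13.3% in Control, -10.3% to 0.93% in Dox and -7.79% to 11.1% in Tc. A small difference says less where libraries 1 and 2 are alike. The median standard deviation over all tested genes, on the log2(normalized count + 1) scale, was 0.16 in Control, 0.38 in Dox and 0.18 in Tc. In the Dox group library 3 lay between libraries 1 and 2 for 9 of 9 genes, as it did for 78% of all tested genes. Among tested genes whose Dox libraries 1 and 2 differed over 2-fold, as all 9 did, it was 4240 of 4399. The same count was 540 of 645 in Control and 1033 of 1118 in Tc. A value over the 3 libraries of a group is therefore not shown to be a value over 3 separate livers, p-values that use libraries 3 may be too small, and results are also given without them.

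**Figure D1:**
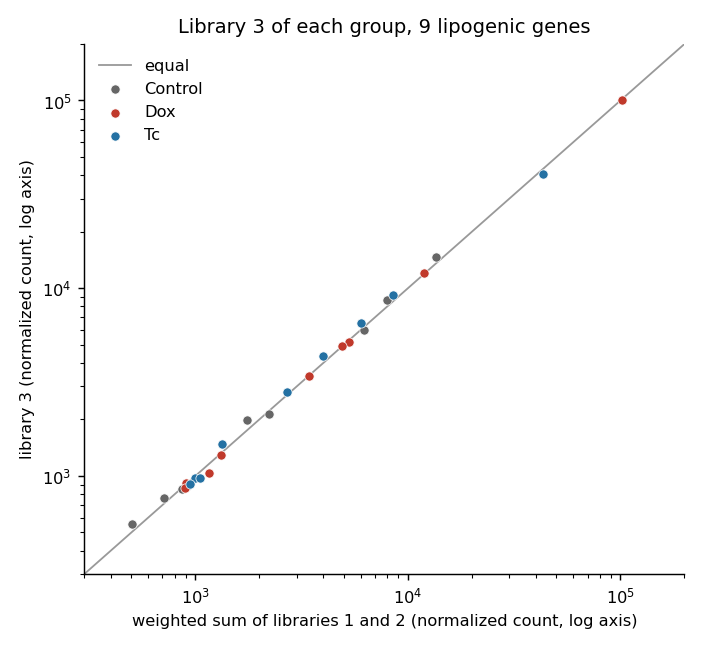
Normalized counts of the 9 tested lipogenic genes in library 3 of each group (y axis, log scale) against the weighted sum of libraries 1 and 2 (x axis, log scale). Each point is 1 gene in 1 group and the line marks equal values. The points lie along the line over the whole range, from -10.3% to 13.3% of the sum.

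The result that stands out in these genes is a split within the Dox group. Dox library 1 was above and Dox library 2 below every Control library for 9 of 9 tested lipogenic genes, a pattern held by 16.5% of all tested genes. The opposite pattern was held by 0 of the 9 and by 13.3% of all tested genes. Among libraries 1 and 2 alone the count was again 9 of 9, against 18.4% of all tested genes. Dox library 1 was at least 10 times Dox library 2 for 6 of the 9 (Scd1, Thrsp, Elovl6, Srebf1, Fasn and Me1), against 2.7% of all tested genes. Smaller differences in a shared direction were also present in the other groups. For every tested lipogenic gene Tc library 1 was above Tc library 2, by 1.05 (Srebf1) to 2.27 times (Thrsp). Control library 2 was likewise above Control library 1, by 1.08 (Acacb) to 1.69 times (Srebf1). No share of all tested genes is given for these orders, so they are not shown to be particular to the lipogenic genes. The pattern was described after the values had been seen, and the libraries of a group have no order. All values below are normalized counts, that is reads per gene scaled by the size factor of the library, and since they come from whole tissue, fewer cells of a type and less RNA per cell cannot be told apart.

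**Figure D2:**
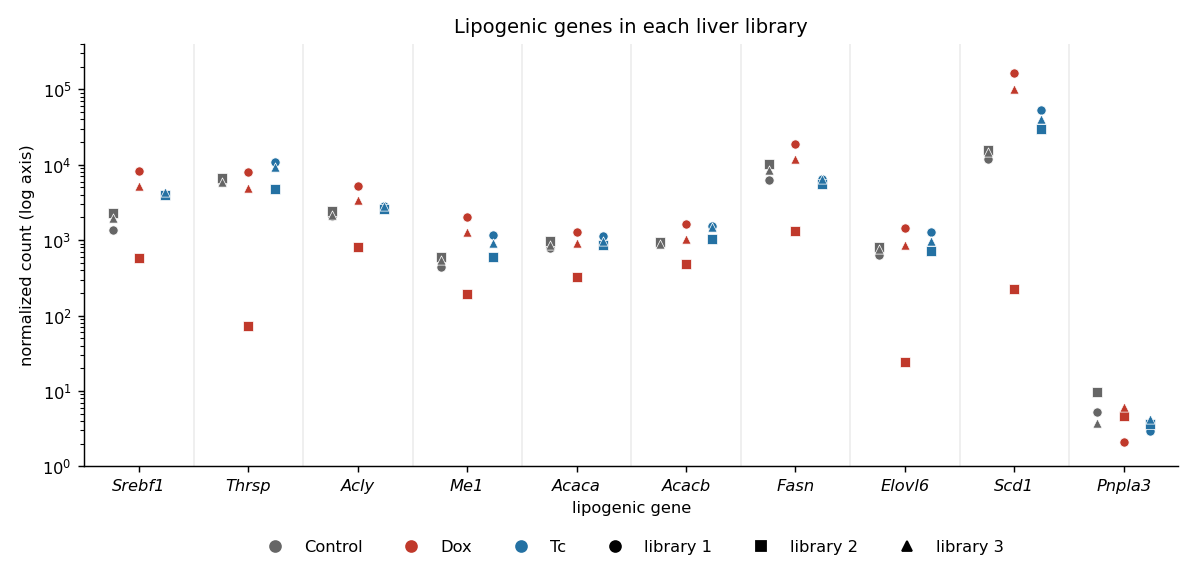
Normalized counts (y axis, log scale) of the 10 lipogenic genes (x axis) in each library. Colour marks the group and the symbol marks the library. Dox library 2 is the lowest of the 9 libraries and Dox library 1 is above all Control libraries for each gene except Pnpla3, which stays below 10 normalized counts in every library.

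Srebf1 (ENSMUSG00000020538, chr11:60199089-60222581, minus strand) encodes the SREBP-1 transcription factors that activate most of the other genes described here. Its normalized counts were 1362, 2304 and 1988 in the Control libraries, 8268, 580 and 5171 in the Dox libraries and 4130, 3924 and 4329 in the Tc libraries. Dox library 1 was 4.39 times the Control mean and the Control mean was 3.25 times Dox library 2. All 3 Tc libraries were above all Control libraries, and the 3 Tc values were close together. Srebf1 exons overlap exons of Rai1 on the other strand. The kit was directional, but whether strand was used in counting is not given in the sources used here.

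Thrsp (ENSMUSG00000035686, chr7:97412938-97417730, minus strand) encodes Spot 14, a small nuclear and cytosolic protein that promotes lipogenesis and responds to thyroid hormone and carbohydrate. Its normalized counts were 5968, 6604 and 5982 in Control, 7963, 72.5 and 4947 in Dox and 10957, 4820 and 9220 in Tc. The Control mean was 85.3 times Dox library 2, the widest such gap of the 9 genes, while Dox library 1 was only 1.29 times the Control mean. The Tc libraries lay on both sides of the Control libraries.

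Acly (ENSMUSG00000020917, chr11:100476353-100528000, minus strand) encodes ATP citrate lyase, which makes the cytosolic acetyl-CoA. It was at 2094, 2411 and 2147 normalized counts in Control, 5154, 803 and 3401 in Dox and 2881, 2567 and 2800 in Tc. The Tc libraries were all above the Control libraries, by 1.24 times between the means. Me1 (ENSMUSG00000032418, chr9:86581371-86695953, minus strand) encodes the cytosolic malic enzyme, a source of NADPH. It was at 437, 598 and 552 normalized counts in Control, 2049, 191 and 1297 in Dox and 1176, 596 and 911 in Tc. Tc library 2 fell within the Control range and the other Tc libraries were above it. Its exons overlap those of an antisense gene, A330041J22Rik.

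Acaca (ENSMUSG00000020532, chr11:84129672-84401651, plus strand) and Acacb (ENSMUSG00000042010, chr5:114146535-114250761, plus strand) encode the acetyl-CoA carboxylases, of which the first feeds synthesis and the second, at the mitochondrial surface, restrains fatty acid oxidation. Acaca was at 784, 982 and 854 normalized counts in Control, 1296, 326 and 916 in Dox and 1121, 853 and 977 in Tc. Acacb was at 883, 956 and 882 in Control, 1622, 480 and 1041 in Dox and 1553, 1023 and 1476 in Tc. These were the genes with the narrowest split in Dox, with library 1 at 3.98 times library 2 for Acaca and 3.38 times for Acacb. Acacb was above all Control libraries in every Tc library and Acaca was not.

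Fasn (ENSMUSG00000025153, chr11:120805846-120824547, minus strand) encodes fatty acid synthase. It was at 6348, 10181 and 8645 normalized counts in Control, 18636, 1317 and 11996 in Dox and 6477, 5610 and 6552 in Tc. Dox library 1 was 14.1 times Dox library 2. Fasn was the only 1 of the 9 genes whose Tc mean was below the Control mean (0.74 times), although the groups overlapped.

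Elovl6 (ENSMUSG00000041220, chr3:129532355-129638495, plus strand) encodes the elongase that takes palmitate to stearate. It was at 636, 821 and 762 normalized counts in Control, 1439, 24.2 and 866 in Dox and 1279, 728 and 970 in Tc. The Control mean was 30.6 times Dox library 2, which held only 21 Elovl6 reads, and the Tc libraries overlapped the Control libraries. Its exons overlap those of an antisense gene, Gm35986.

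Scd1 (ENSMUSG00000037071, chr19:44394455-44407879, minus strand) encodes the main hepatic stearoyl-CoA desaturase, which makes oleate and palmitoleate. It was at 11964, 15732 and 14711 normalized counts in Control, 165274, 225 and 101017 in Dox and 52575, 30034 and 40766 in Tc. Dox library 1 was 11.7 times the Control mean and 733 times Dox library 2, the widest split of the set, and every Tc library was above every Control library, with a mean 2.91 times as high. In Dox library 1, 1.65% of all reads on genes were Scd1 reads (95% Wilson interval 1.64% to 1.66%), against 0.00264% (0.00229% to 0.00304%) in Dox library 2. These intervals cover counting error only. Scd1 has close paralogs beside it in the genome, and reads that match several of them cannot be assigned with certainty.

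Pnpla3 (ENSMUSG00000041653, chr15:84167837-84187236, plus strand), a lipid droplet acyltransferase and hydrolase that SREBP-1c and ChREBP are known to activate, was at 5.29, 9.73 and 3.81 normalized counts in Control, 2.11, 4.6 and 6.16 in Dox and 2.93, 3.60 and 4.21 in Tc. At this depth it did not follow the split of the other genes, and no difference was detectable.

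**Figure D3:**
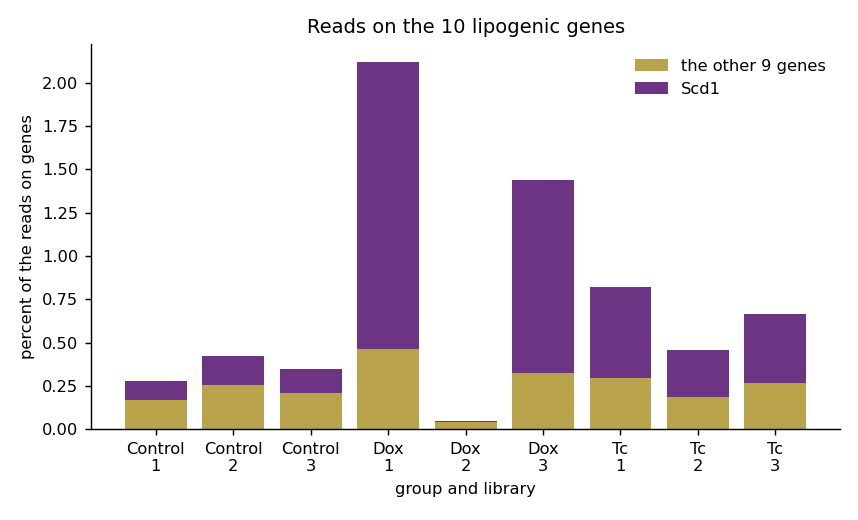
Percent of all reads on genes (y axis) that fell on the 10 lipogenic genes in each library (x axis), with Scd1 and the other 9 genes stacked from 0. The sum is highest in Dox library 1 (2.12%) and lowest in Dox library 2 (0.0471%).

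Together the 10 genes took 0.277% to 0.421% of the reads in Control, 2.12%, 0.0471% and 1.44% in Dox and 0.823%, 0.458% and 0.665% in Tc. Without Scd1 these shares were 0.168% to 0.258% in Control, 0.464%, 0.0445% and 0.326% in Dox and 0.184% to 0.296% in Tc. Most of the excess in Dox library 1 and in Tc was thus Scd1 reads, whereas the deficit in Dox library 2 was seen in all 9 tested genes and not in Pnpla3.

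Levels of different genes were compared per kilobase of annotated exon, a scale that depends on the isoforms annotated. In Control the order was Scd1 (2890 normalized counts per kilobase) and Thrsp (2825), then Fasn (767), Acly (420) and Srebf1 (335), then Me1 (137), Elovl6 (115) and Acacb (94.2), then Acaca (51.2) and Pnpla3 (4.06). Scd1 and Thrsp overlapped in range, as did Acly with Srebf1, Me1 with Elovl6 and Elovl6 with Acacb, and the other neighbours did not overlap. In Tc Scd1 (8407) stood apart from Thrsp (3806), and Srebf1 (733) stood above Fasn (568), the reverse of their order in Control. In Dox library 1 the order was led by Scd1 (33785) and Thrsp (3638). In Dox library 2 it was led by Acly (152), Fasn (120) and Srebf1 (103), with Scd1 (46.1) in place 6 and Thrsp (33.1) in place 7.

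The spread between libraries showed the same split. The median standard deviation of the 9 genes on the log2(normalized count + 1) scale was 2.05 in Dox, against 0.38 over all tested genes. In Control it was 0.19 against 0.16, and in Tc 0.33 against 0.18. Across the 9 libraries Pearson's r between pairs of the 9 genes ran from 0.74 to 0.99 (median 0.90), as a description of libraries that share 1 split. Over the 6 Control and Tc libraries r ran from -0.50 to 0.98 (median 0.83), and 7 of the 36 pairs were negative, the lowest being Fasn with Scd1. Fasn was the member that left the others there: its r with the mean profile of the 9 genes was -0.17, against 0.84 to 0.99 for the other 8.

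The study gave the drugs to ask how far each one disturbs the liver transcriptome. For that question the groups were compared with limma in 1 model of all 9 libraries on the log2(normalized count + 1) scale, and a gene was called where the fold change passed 2 and the p-value, adjusted by Benjamini-Hochberg, was under 0.05. Dox against Control called 0 of the 9 lipogenic genes, against 5% of all tested genes. Tc against Control called 0 of the 9, against 0.165%, and Dox against Tc called 0 of the 9, against 0.215%. At an unadjusted p under 0.05 limma also found 0 of the 9 in each comparison, against 29.1%, 11.7% and 21.7% of all tested genes. DESeq2 on the recovered reads called 0 of the 9 in each, with backgrounds of 9.4%, 1.56% and 4.98% in the same order, and 0 at an unadjusted p under 0.05, against 31.0%, 12.7% and 24.7%. edgeR called 0 of the 9 in each, with backgrounds of 5.52%, 0.174% and 0%, where 2861 genes of the last comparison had an unadjusted p under 0.05. Without libraries 3, DESeq2 called 0 of the 9, with backgrounds of 1.2%, 0.0744% and 0.256%, while limma and edgeR called 0 of the 9 and 0 genes in all, and no lipogenic gene had an unadjusted p under 0.05 in any of these fits.

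The fitted differences were small against their errors in Dox. For Dox against Control the log2 fold change was 0.15 ± 2.10 (SE) for Scd1, -2.12 ± 1.49 for Thrsp, -1.22 ± 1.27 for Elovl6, 0.66 ± 0.83 for Srebf1 and 0.61 ± 0.75 for Me1. The other 4 genes lay between -0.31 and 0.13. The median over the 9 genes was 0.04, against 0.00 over all tested genes, and it went to 0.86 without Dox library 2 and to -0.67 without Dox library 1, while the limma adjusted p-values ran from 0.37 to 0.97. The fold change of Scd1 depended on the model, since limma averages logs and DESeq2 fits mean counts: DESeq2 gave 2.64 ± 1.37 with an adjusted p of 0.17. Among the Dox libraries themselves, Scd1 was far above the Controls in libraries 1 and 3 and far below them in library 2.

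For Tc against Control the direction was more even, with 8 of the 9 fold changes above 0 and a median of 0.39, against 0.00 over all tested genes, but none was called. Scd1 had a log2 fold change of 1.51 ± 2.10, Srebf1 of 1.16 ± 0.83, Me1 of 0.71 ± 0.75 and Acacb of 0.55 ± 0.39, and Fasn was lowest at -0.41 ± 0.83. The errors include the spread of the Dox libraries, since 1 estimate served all groups. In the fit of the Control and Tc libraries alone, 2 of the 9 were called, Scd1 (1.51 ± 0.24, adjusted p = 0.014) and Srebf1 (1.16 ± 0.18, adjusted p = 0.014), against a background of 2.28%. These p-values use libraries 3 and may be too small, and this fit was not run without them. The fits of all groups without libraries 3 called 0 of the 9. Every Tc library was above every Control library for 4 of the 9 genes (Scd1, Srebf1, Acly and Acacb), against 15.8% of all tested genes, and every Tc library was below for 0 of the 9, against 14.9%. Among libraries 1 and 2 alone the first count was again 4 of 9, against 23.6%.

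For Dox against Tc the median log2 fold change was -0.50, against -0.02 over all tested genes. Thrsp was lowest at -2.46 ± 1.49 and Fasn highest at 0.10 ± 0.83, and the limma adjusted p-values ran from 0.34 to 0.95. Thrsp went to -0.33 without Dox library 2 and to -3.71 without Dox library 1. The median went to 0.61 without Dox library 2 and to -0.91 without Dox library 1, and it was 0.17 with DESeq2 and 0.18 with edgeR. This comparison shares its Dox libraries with Dox against Control and its Tc libraries with Tc against Control. As each drug was given at 1 dose and 1 time, Dox and Tc are compared at 2 mg/mL and 7 days only.

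Leaving out library 2 of the Dox group changed the calls in each comparison. Without it, Dox against Control called 3 of the 9, against 9.11% of all tested genes: Scd1 (3.20 ± 0.31, adjusted p = 0.0013), Srebf1 (1.83 ± 0.25, adjusted p = 0.0035) and Me1 (1.63 ± 0.29, adjusted p = 0.0079). Tc against Control then called 2 of the 9, against 1.83% (Scd1, adjusted p = 0.022, and Srebf1, adjusted p = 0.023). Dox against Tc called 2, against 1.48%: Scd1 (1.69 ± 0.31, adjusted p = 0.033) and Fasn (1.27 ± 0.24, adjusted p = 0.036). In that fit the remaining Dox libraries were library 1 and the library 3 that is close to a sum with 61.3% of library 1, so their agreement is not shown to be that of 2 livers. Without Dox library 1 the fold change of Scd1 against Control was -1.55 instead.

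**Figure D4:**
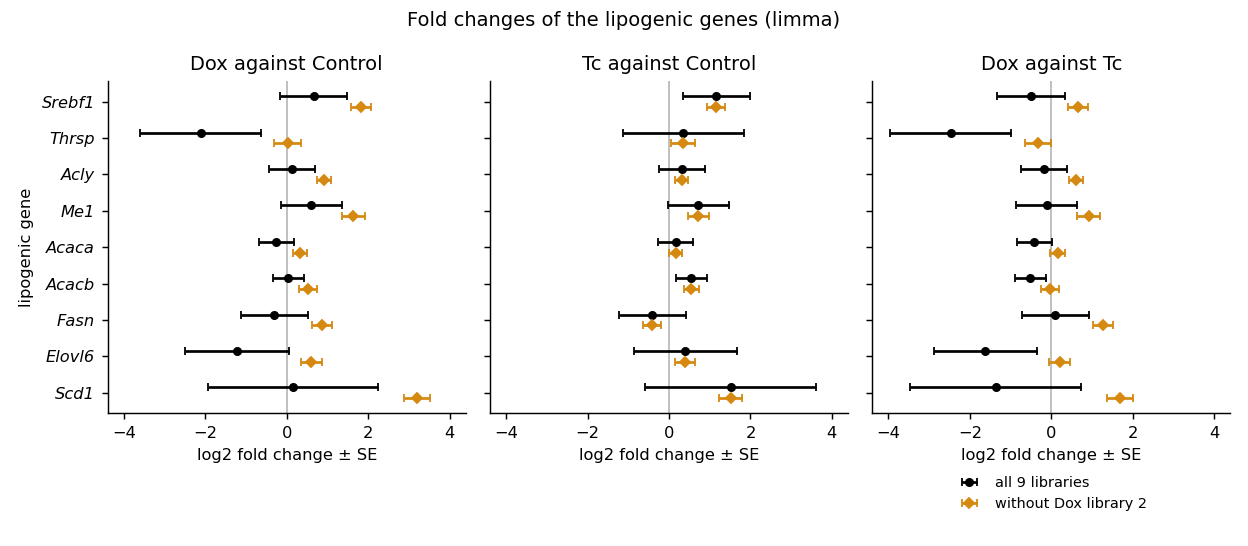
Log2 fold changes of the 9 tested lipogenic genes (y axis) in limma, with SE, for the 3 comparisons. Black circles use all 9 libraries and orange diamonds leave out Dox library 2. In the Dox comparisons the diamonds lie to the right of the circles with shorter error bars (Scd1 against Control moves from 0.15 to 3.20), and in Tc against Control the values stay and the bars shorten.

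The wider pathway was read from 9 lists with 61 genes, of which 60 were tested. Limma called 3 of the 60 in Dox against Control and 0 in each of the other comparisons, beside 5%, 0.165% and 0.215% of all tested genes. At an unadjusted p under 0.05 it found 16, 11 and 10 in the order given above, beside 29.1%, 11.7% and 21.7%. DESeq2 called 5, 1 and 4, beside 9.4%, 1.56% and 4.98%. The split of the lipogenic genes, with Dox library 1 above and Dox library 2 below all Controls, was seen in 21 of the 60 (16.5% of all tested genes) and the opposite in 5 (13.3% of all tested genes). All Tc libraries were above all Control libraries for 24 of the 60 (15.8% of all tested genes).

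Upstream of the enzymes, the split was held by Srebf1, as above. In the lists on SREBP processing and on ChREBP and LXR regulators, only Mlxipl held it. Mlxipl encodes ChREBP and is named here after its values were seen. Mlxipl was at 1064, 1143 and 1158 normalized counts in Control, 1762, 620 and 1397 in Dox and 1584, 1177 and 1304 in Tc. In the list on SREBP processing, 0 of 6 genes held the split, against 16.5% of all tested genes. Limma called 0 of them (unadjusted 2 in each comparison). DESeq2 called Insig1 in Tc against Control and Insig2 in Dox against Tc, beside 1.56% and 4.98% of all tested genes. Insig1, which holds SREBP in the endoplasmic reticulum and is itself an SREBP target, was at 938, 1262 and 1015 normalized counts in Control, 2739, 1493 and 2232 in Dox and 1941, 2197 and 2389 in Tc, above all Controls in all 6 drug libraries. Its log2 fold change in Dox was 0.97 ± 0.23 with a limma adjusted p of 0.036, just short of the fold limit. Srebf2, the regulator of cholesterol synthesis, had -0.53 ± 0.15 (adjusted p = 0.065). Of the ChREBP and LXR regulators, 1 of 8 held the split (Mlxipl), against 16.5% of all tested genes. Limma called 1 of the 8 in Dox against Control, beside 5% of all tested genes. The called gene was Ppargc1b, a coactivator of SREBP-1, with a log2 fold change of 1.48 ± 0.31 in Dox (limma adjusted p = 0.027). Ppargc1b was at 166, 127 and 156 in Control, 280, 640 and 409 in Dox and 250, 153 and 254 in Tc. It was highest in the library where the lipogenic genes were lowest. Mlx, the partner of ChREBP, had -0.42 ± 0.21 (adjusted p = 0.22).

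In the list on sugar entry and glycolysis, 4 of 8 genes held the split, against 16.5% of all tested genes. Limma and DESeq2 called 0 (unadjusted limma count 2 in Dox, 0 in the others). Pklr, liver pyruvate kinase and a ChREBP target, was at 2528, 4069 and 3045 in Control, 4214, 187 and 2643 in Dox and 3622, 1475 and 2796 in Tc. Tkfc had a log2 fold change of -0.74 ± 0.31 in Dox (limma adjusted p = 0.15).

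Of the genes for NADPH supply 4 of 5 held the split, against 16.5% of all tested genes. None was called by limma or DESeq2 (unadjusted limma count 1, 0 and 0). Idh1, the cytosolic isocitrate dehydrogenase, was at 2568, 2616 and 2310 in Control, 4437, 497 and 2902 in Dox and 4108, 3402 and 3740 in Tc. G6pdx, the entry to the pentose phosphate pathway, was the exception, at 61.4, 85.8 and 91.5 in Control and 39.0, 52.9 and 37.8 in Dox. It was lower in all 3 Dox libraries but not called (limma adjusted p = 0.080). As log2 differences from the Control mean, its Tc libraries were at -0.85, -0.020 and -0.62. Tc libraries 1 and 3 were thus also below the lowest Control library (-0.35). Of the genes for acetyl-CoA and citrate supply 2 of 7 held the split, against the same 16.5%. Limma and DESeq2 called 0 of them (unadjusted limma count 3, 0 and 2). Pcx, which makes oxaloacetate, had -0.79 ± 0.21 in Dox (adjusted p = 0.051) and Pdha1 had 0.50 ± 0.15 (adjusted p = 0.075). Of the genes that control malonyl-CoA and the carboxylases 2 of 5 held the split, again against 16.5%. Here too 0 were called by limma or DESeq2 (unadjusted limma count 1, 1 and 0). Prkaa2, an AMPK catalytic subunit, had 0.48 ± 0.16 (adjusted p = 0.089) and Mlycd had 0.41 ± 0.23 (adjusted p = 0.26). Mid1ip1, which binds Thrsp and promotes carboxylase polymerization and is named after its values were seen, was at 276, 490 and 352 in Control, 1438, 65.6 and 855 in Dox and 458, 222 and 401 in Tc.

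Of the other elongases and desaturases, 6 of 10 held the split, against 16.5% of all tested genes. In every Tc library 7 of 10 were above all Controls, against 15.8% of all tested genes. Limma called 0 of them (unadjusted count 2, 5 and 2) and DESeq2 called 1 in Dox against Control, Elovl3. Elovl3, an elongase of very long chains, was nearly silent in Control at 4.23, 5.31 and 5.09 normalized counts, and was at 1131, 0 and 682 in Dox and 203, 6.29 and 141 in Tc. It was thus high in libraries 1 and 3 of both drug groups. Tecr, the last reductase of elongation, was at 1611, 1270 and 1387 in Control, 1430, 415 and 1033 in Dox and 1426, 1515 and 1474 in Tc.

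In the list on triglyceride synthesis 2 of 6 tested genes held the split, against 16.5% of all tested genes. Limma called 2 of the 6 as raised in Dox, against 138 of all 12100 tested genes. Gpam, which adds the first acyl chain to glycerol phosphate, was at 1741, 1657 and 1896 in Control, 4638, 4839 and 4537 in Dox and 3441, 2522 and 2882 in Tc, with a log2 fold change of 1.41 ± 0.15 in Dox (adjusted p = 0.0050). Gpam, a known SREBP-1c target, was nearly equal in the 3 Dox libraries. The part of SREBP-1c in these values was not tested. Lpin2, a phosphatidate phosphatase, was at 2037, 1382 and 1727 in Control, 3946, 13847 and 7409 in Dox and 3278, 2782 and 3030 in Tc (2.13 ± 0.39, adjusted p = 0.019). DESeq2 called both also without libraries 3, where it did not call Ppargc1b. In the list on the insulin signal 0 of 5 genes held the split and limma called 0 (unadjusted count 1, 2 and 0), while DESeq2 called Irs2 in both comparisons with Dox. Irs2, a docking protein of the insulin receptor that is known to rise in fasting, was at 739, 528 and 633 in Control, 179, 5844 and 2065 in Dox and 399, 620 and 467 in Tc, the opposite order to the lipogenic genes. Irs1 had 0.52 ± 0.14 in Dox (limma adjusted p = 0.058).

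Some of the genes that fasting is known to induce ran against the lipogenic genes in Dox library 2. Of 11 tested, 0 held the lipogenic split (16.5% of all tested genes) and 3 held its opposite (13.3% of all tested genes). Limma called 2 as raised in Dox, 0 in Tc and 0 in Dox against Tc, beside 5%, 0.165% and 0.215% of all tested genes. The unadjusted counts were 3, 0 and 4, beside 29.1%, 11.7% and 21.7%. DESeq2 called 6, 0 and 5, beside 9.4%, 1.56% and 4.98%. Igfbp1, a secreted binding protein that insulin represses, was at 846, 357 and 653 normalized counts in Control, 61.1, 82201 and 27852 in Dox and 210, 1709 and 766 in Tc. Pdk4, which blocks entry of pyruvate into the citrate cycle, was at 36.0, 42.5 and 25.4 in Control, 13.7, 1824 and 682 in Dox and 10.7, 31.5 and 18.5 in Tc. Both were lowest in library 1 and highest in library 2 within each drug group. The 2 called genes did not split: G6pc was at 3055, 3727 and 3585 in Control and 7265, 6620 and 6890 in Dox (1.01 ± 0.17, adjusted p = 0.015), and Acot1 was at 80.5, 63.7 and 80.1 in Control and 171, 360 and 250 in Dox (1.73 ± 0.26, adjusted p = 0.011). DESeq2 did not call G6pc, and it called Acot1 with and without libraries 3. The labels give neither the feeding state nor the hour of sampling, and the part of these in the split was not tested.

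**Figure D5:**
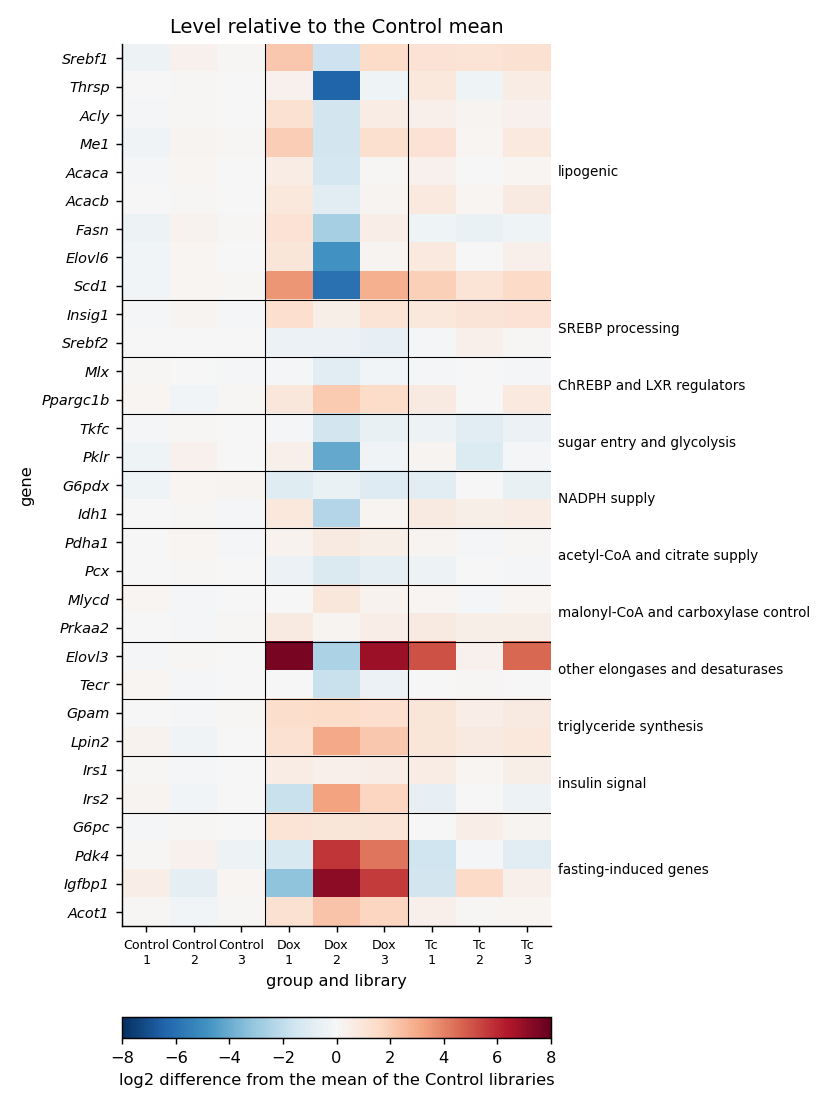
Level of each gene in each library as the log2 difference from the mean of the Control libraries, for the 9 tested lipogenic genes and the genes named by rule from the 10 pathway lists. Red is higher and blue lower. The lipogenic block is red in Dox library 1 and blue in Dox library 2, and Pdk4 and Igfbp1 show the reverse.

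The genes whose profile over the 9 libraries was most like the mean profile of the lipogenic genes were Mup3 (r = 0.993), Akr1c13 (0.988), Ifi27 (0.988), Dhrs11 (0.988) and Cat (0.987), and over the 6 libraries numbered 1 and 2 their r ran from 0.987 to 0.998. Mup3, a major urinary protein of a family with near-identical copies whose reads are hard to assign, was at 5338, 11695 and 9716 normalized counts in Control, 77949, 79.4 and 49058 in Dox and 44590, 11447 and 26713 in Tc. The r is given without a test, since all these libraries share the Dox split.

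Markers of cell types were read beside these genes. The 6 hepatocyte markers, led by Alb, summed to 1105750 to 1567532 normalized counts in Control, 435927 to 796538 in Dox and 780661 to 1217856 in Tc, lowest in Dox library 2, and limma called 0 of them (Alb -1.52 ± 0.74, Cps1 0.69 ± 0.37, with 0 at an unadjusted p under 0.05) while DESeq2 called Alb in Dox. Of 6 adipocyte markers, Retn and Lep were at 0 in every library and only Cidec, which hepatocytes also express, was tested and called (2.57 ± 0.63 in Dox, adjusted p = 0.043), and the list summed to 2.12 to 18.6 in Control, 19.0 to 71.3 in Dox and 6.74 to 12.7 in Tc. It was highest in Dox library 2, where Scd1 and Fasn were lowest. Of 5 exocrine pancreas markers, Prss2, Cpa1 and Pnlip were at 0 in every library and the sum was at most 7.92. The 4 skeletal muscle markers summed to 100.4 to 128 in Control, 155, 0.00 and 95.0 in Dox and 0.00 to 2.53 in Tc, so they moved with the Dox split but not with the Tc values (Acta1 and Myh4, limma not called, DESeq2 called 3 in Tc against Control and 3 in Dox against Tc). The 6 leukocyte markers summed to 3060 to 4726 in Control, 890 to 1437 in Dox and 1514 to 2923 in Tc. Of 4 tested, 3 were lowered in Dox by limma (Clec4f, Adgre1 and Ptprc), against 467 of all 12100 tested genes. Of the erythroid markers, Hba-a1 was lowered in Dox (-1.80 ± 0.45, adjusted p = 0.044) and Hbb-bs was called by DESeq2 but not by limma (-1.62 ± 0.44). Of the endothelial, stellate and bile duct markers, Stab2 was lowered in Dox (-1.22 ± 0.12, adjusted p = 0.0047) and Krt19 was not called (0.95 ± 0.46). Leukocyte sums in Dox libraries 1, 2 and 3 were 890, 1437 and 1026, all below the Control range. Among the Dox libraries they ran in the opposite order to the lipogenic genes. The endothelial, stellate and bile duct sums did so too (2147, 3618 and 2532). The erythroid sums (2266, 646 and 1570) ran in the same order as the lipogenic genes. The part of any of these cells in the lipogenic values was not tested. Without libraries 3, limma called none of these markers, and DESeq2 called Clec4f and Stab2 but not Cidec, Ptprc, Adgre1 or Hba-a1.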

How the data were processed

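Liver RNA of 9 mouse libraries (Control, Dox and Tc) was sequenced single-end. The authors trimmed reads with cutadapt, aligned them to mm10 with STAR, counted them per gene with HTSeq 2.0.5 and normalized with DESeq2 1.42.0. The deposited values are a signal: the reads of each gene, scaled by a size factor for the library (normalized counts). Whole reads were recovered for 100% of values (tolerance 0.1 read), giving 7426136 to 12183041 reads on genes per library.

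Log2(normalized count + 1) was tested with limma 3.58.1 (R 4.3.3), with a trend and 1 model of all libraries. The 12100 genes whose mean reached 10 were tested, and p-values were adjusted by Benjamini-Hochberg over them. DESeq2 and edgeR 4.0.16 were run on recovered reads as alternatives. The code was tested on simulated data. Groups and replicate numbers come from the sample titles. The study describes the libraries of a group as independent biological replicates. The labels name no animals and libraries 3 are near sums of the others, so p-values measure only the spread between libraries. Deviations from the group mean correlated between Dox and Tc libraries of the same number (r = 0.29, 0.32 and 0.18), Control libraries paired with neither (-0.08 to 0.06), and libraries 3 make these values dependent on each other. Positions and exon lengths are from GENCODE M21 (GRCm38), promoters from RefSeq.

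All 10 genes are named. From each list, called genes and the 2 with the largest fold change in Dox are named. The genes and lists were chosen with earlier results of these data known. Alternatives covered the pseudocount, filter, scaling and test, the groups fitted together, a replicate block and each library left out.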

Additional observations from a re-analysis of the deposited data

How the results depend on the processing

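Of 198 values per comparison (9 genes under 22 alternatives), the direction of Tc against Control reversed in 0, Dox against Control in 21 and Dox against Tc in 27. The fit of all libraries called 0 lipogenic genes, so it had no called value to reverse. Scd1 in Dox against Tc was called in its reversed direction without Dox library 2. It went from -1.36 to 1.69 there (limma adjusted p = 0.033). With DESeq2, Fasn and Elovl6 against Control turned to 0.33 and 0.055 in Dox (edgeR 0.33 and 0.058), and against Tc Srebf1, Acly, Me1 and Scd1 turned to 0.17, 0.18, 0.39 and 1.11 (edgeR 0.18, 0.18, 0.40 and 1.11). Without libraries 3, limma gave -0.14 for Acly, -1.17 for Scd1 and -0.059 for Acacb against Control and -0.28 for Fasn against Tc. In the same libraries DESeq2 gave Fasn 0.26 against Control and Srebf1, Acly, Me1 and Scd1 0.13, 0.13, 0.34 and 1.0 against Tc, and edgeR gave 0.25, 0.12, 0.12, 0.33 and 0.99 in the same order. Scaling every library to the same total raised the median gene by 0.17 in Dox against Control and 0.16 in Dox against Tc, and turned Me1 to 0.065 in the latter. The cause was not tested.

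With each library left out in turn, the number of lipogenic genes called ran from 0 to 3 in Dox against Control, 0 to 2 in Tc against Control and 0 to 2 in Dox against Tc, and was above 0 only without Dox library 2. The fit of 2 groups called 2 in Tc against Control. The median of Tc against Control ran from 0.28 to 0.70, the latter without Tc library 2, that of Dox against Control from -0.67 to 0.86 and that of Dox against Tc from -0.91 to 0.61. In Dox against Control the ranges were -0.67 to 0.32 for Acaca, -0.088 to 1.83 for Srebf1, -0.42 to 0.92 for Acly, -1.05 to 0.86 for Fasn, -0.074 to 1.63 for Me1, -3.36 to 0.023 for Thrsp, -1.55 to 3.20 for Scd1, -2.32 to 0.60 for Elovl6 and -0.36 to 0.52 for Acacb. In Dox against Tc they were -0.84 to 0.16 for Acaca, -1.25 to 0.66 for Srebf1, -0.73 to 0.61 for Acly, -0.64 to 1.27 for Fasn, -0.79 to 0.92 for Me1, -3.07 to 1.69 for Scd1, -2.71 to 0.21 for Elovl6, -3.71 to -0.33 for Thrsp and -0.91 to -0.032 for Acacb. Each low end in Dox was reached without Dox library 1 and each high end without Dox library 2.

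The replicate block, which uses the pairing of the numbers, called 0 lipogenic genes in each comparison, as did the fit without it. Counts by library without libraries 3 were chosen after seeing the data. Of the 10 genes only Pnpla3 was too low to be tested at this depth. In Dox library 2 some tested genes also rested on few reads, with 21 for Elovl6 and 63 for Thrsp.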
